A study of Homo sapiens with 3 samples.

Results

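The genes described here build the junctions between epithelial cells or take part in epithelial-mesenchymal transition (EMT), the programme by which epithelial cells loosen these junctions and take on mesenchymal traits. They were chosen by name, from 41 genes in 4 groups: 19 of the tight junction and of apical polarity, 8 of the adherens junction, 8 of the desmosome, and 6 EMT and splicing regulators. Of these, 38 had at least 1 probe set annotated with that gene symbol alone, out of 19775 genes measured in all, and they were read by 80 probe sets. F11R, CTNND1 and ESRP2 had none and were not analysed here.

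The study profiled a human colorectal cancer line on Affymetrix expression arrays. One culture received viral full-length LATS2, a Hippo pathway kinase (LATS2), another received viral LATS2 residues 1 to 625, a fragment without the C-terminal kinase domain (LATS2N), and the control culture received the empty viral vector (control). There was 1 array per group, with no replicates, so no difference below carries a test or a replicate error. The sample labels name the line SW620, while the series' design text names SW480, both established colorectal cancer lines, and states stable expression. All cells, controls included, were virus-infected and grown in serum-containing medium.

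As background, tight junctions seal the space between neighbouring epithelial cells and are built from claudins, occludin and cytoplasmic scaffold proteins. Adherens junctions hold cells together through cadherins tied by catenins to actin, and desmosomes do so through desmosomal cadherins tied by plakins to keratin filaments. The transcription factors SNAI2, ZEB1 and TWIST1 can repress CDH1, which encodes E-cadherin, and SNAI and ZEB factors bind E-box motifs. Hippo signalling receives input from cell contacts, and its coactivators YAP and TAZ act through TEAD factors.

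The line carried epithelial junction transcripts together with some mesenchymal ones on all 3 arrays. Signals are MAS5 intensities, and a floor was set at their median over every probe set and array, 50.5. Of the 38 genes, 34 read at or above the floor on every array and 4 read below it on every array, namely the claudin genes CLDN2 and CLDN23, the N-cadherin gene CDH2 and TWIST1. The desmosome group was the one in which all 8 members were above the floor. A signal depends on the probe set, so levels were compared between arrays and not between genes.

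**Figure D1:**
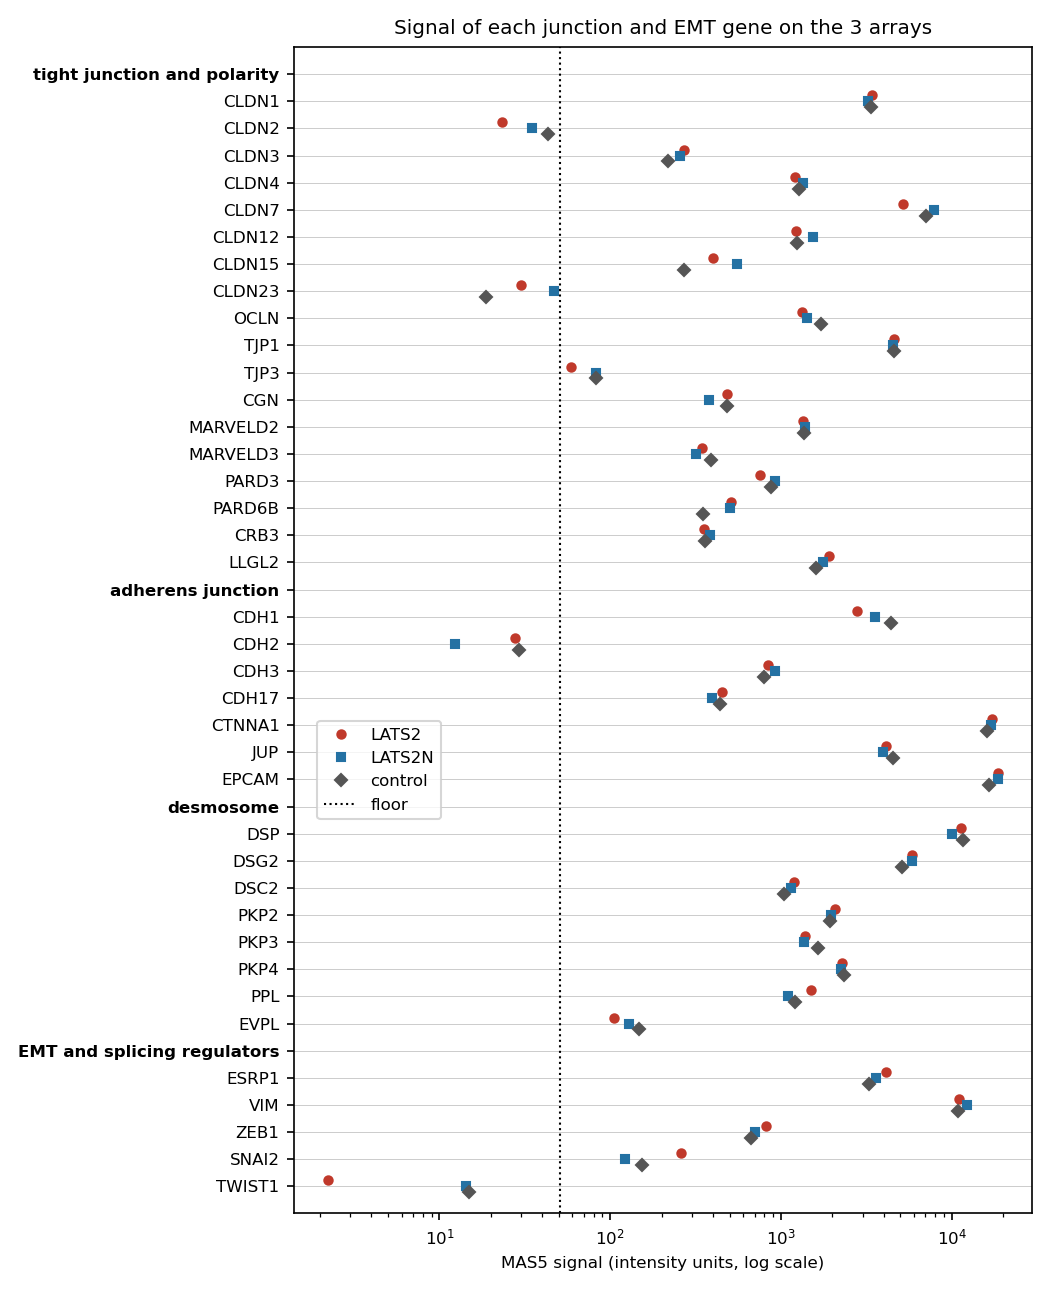
MAS5 signal (log axis, intensity units) of each of the 38 genes on the LATS2, LATS2N and control arrays, 1 point per array, with the floor of 50.5 as a dotted line. Most genes read nearly the same on all 3 arrays, CDH1, CLDN7, CLDN15 and SNAI2 stand more widely apart, and the 4 genes left of the line have no order among arrays.

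The array labels could not be checked through LATS2 itself. Its brighter probe sets read 219.2 and 377.1 with LATS2, 219.1 and 409.2 with LATS2N, and 205.7 and 385.2 in control, and which part of the transcript they read is not known here. Of 10 markers of colorectal epithelium fixed for a check of the label, 8 read at or above the floor on all 3 arrays. Among them VIL1, which encodes the brush border protein villin, read from 3948 to 5013. GPA33 and KRT20 were dim, from 78.0 to 80.9 and from 108.5 to 126.8. CDX1 reached the floor on LATS2N only and LGALS4 on LATS2 only. The summed signal of the 10 markers was 104448 on LATS2, 103175 on LATS2N and 95582 on control, made up mostly of the keratin genes KRT8 and KRT18 and of EPCAM. Of the markers of other cell types, 4 of 7 for fibroblasts, 4 of 5 measured for endothelium and 3 of 4 measured for leukocytes were below the floor on every array. Summed fibroblast signals were 2538, 2403 and 1950 on LATS2, LATS2N and control, made up mostly of LUM and COL1A1, and COL1A2 and COL3A1 were below the floor throughout. Summed endothelial signals ran from 121.6 to 211.0 and leukocyte signals from 139.2 to 171.1. The ratio of 3-prime to 5-prime signal ran from 0.94 to 1.02 for GAPDH and from 1.68 to 1.85 for ACTB.

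On the whole, junction and EMT transcripts differed little between the arrays. A gene was called by size alone, at a ratio of at least 2-fold between signals raised to the floor. None of the 34 genes was called on LATS2 against control, where 1.8% of all genes were called and 0.963% were called higher. CLDN15 was called higher on LATS2N against control, beside 1.51% of all genes called and 0.944% called higher. SNAI2 was called higher in LATS2 against LATS2N, beside 1.59% called and 0.592% called higher. At 1.5-fold the counts were 2 on LATS2 against control (SNAI2 higher, CDH1 lower), 1 on LATS2N against control (CLDN15) and 2 in LATS2 against LATS2N (SNAI2 higher, CLDN7 lower), beside 10.3%, 8.13% and 9.34% of all genes. A single gene or none out of 34 is near the background at 2-fold and shows nothing particular to these genes.

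The median log2 ratio of the 34 genes was 0.01 on LATS2 against control, 0.04 on LATS2N against control and 0.01 in LATS2 against LATS2N, beside 0.03, 0.02 and 0.01 over all genes. The same arrays enter several of these comparisons, so they are not independent. Ratios above 0 were found for 18 of the 34 genes on LATS2 against control, for 19 on LATS2N against control and for 20 in LATS2 against LATS2N, beside 54.8%, 53.6% and 52.3% of all genes. Over the 3 arrays, the highest signal was less than 1.5 times the lowest for 30 of the 34 genes, or 88.2%, against 84.7% of all 11534 genes above the floor throughout. Among genes at 2000 or more on every array, a limit chosen after the values were seen, it was so for 10 of 12, or 83.3%, against 98.3% of 3146 genes, the exceptions being CDH1 and CLDN7. Over all 34 genes the 4 exceptions were CDH1, CLDN7, CLDN15 and SNAI2.

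**Figure D2:**
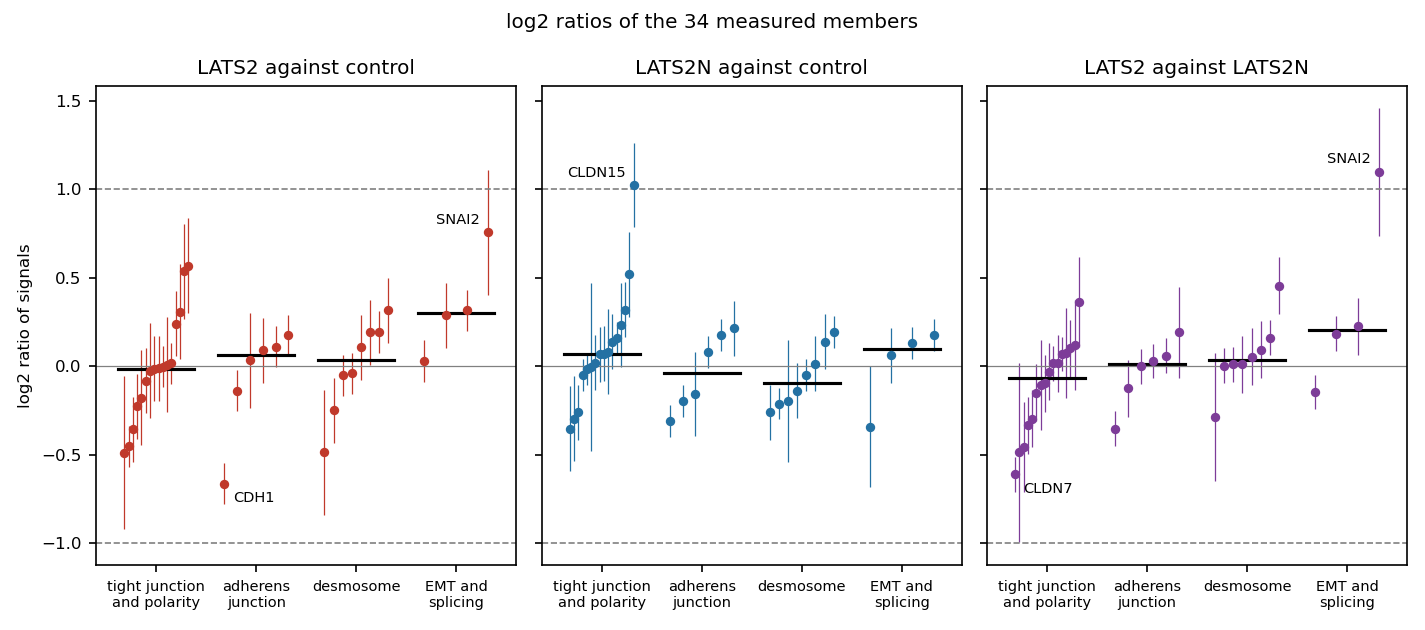
log2 ratio of signals for the 34 genes above the floor in each comparison, by group. Points are genes in order of their ratio, error bars are the spread (SD) between probe sets of 1 gene at that signal, black lines are group medians and dashed lines mark 2-fold, and CLDN15 in LATS2N against control and SNAI2 in LATS2 against LATS2N lie past them.

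A noise scale was taken from pairs of probe sets that read 1 gene. For LATS2 against control the SD of a log2 ratio was 0.43 at signals of 50 to 100, 0.18 at 500 to 2000 and 0.12 above 2000, by the dimmer array. It covers differences between probe sets and not between cultures. Past 3 times this spread, a limit chosen after the values were seen, lay CDH1 and CLDN7 on LATS2 against control, both lower, where 4.11% of genes passed, 2.22% higher and 1.89% lower. CLDN15, higher, and CDH1, lower, passed it on LATS2N against control, beside 3.95% of genes, 2.12% higher and 1.82% lower. SNAI2, higher, and CLDN7 and CDH1, lower, passed it in LATS2 against LATS2N, beside 4.9%, 2.54% higher and 2.36% lower. Of the genes that did not reach 1.5-fold, 15 of 32 lay within 1 spread on LATS2 against control, 18 of 33 on LATS2N against control and 22 of 32 in LATS2 against LATS2N.

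**Figure D3:**
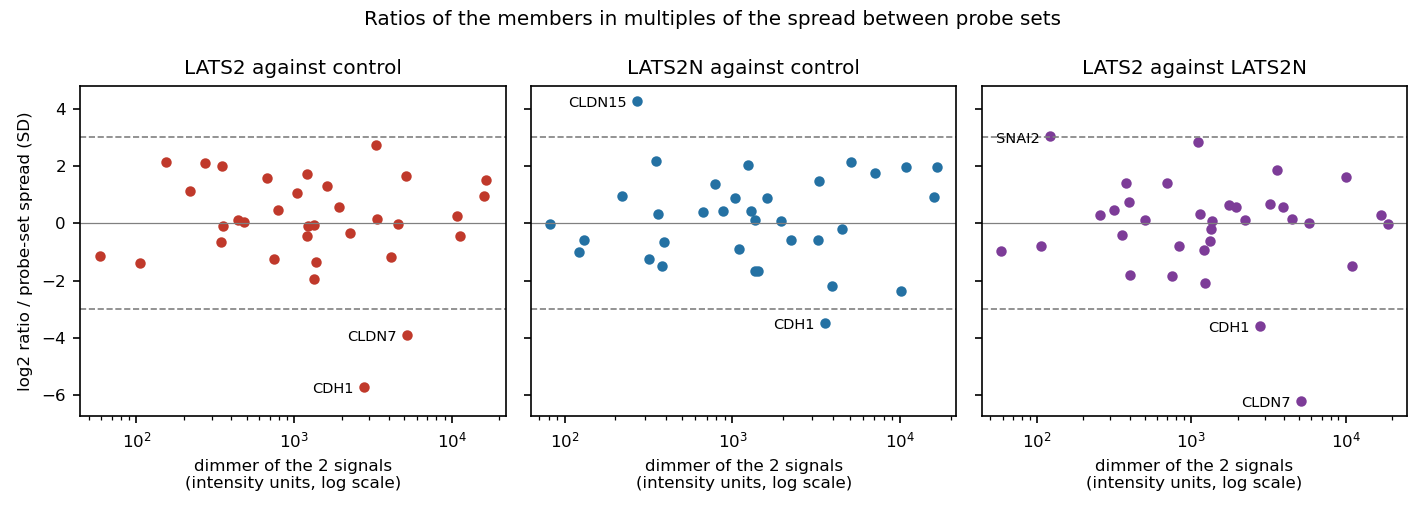
log2 ratio divided by the spread (SD) between probe sets, against the dimmer of the 2 signals (log axis, intensity units), for the 34 genes in each comparison. Dashed lines mark 3 times the spread, and CDH1 lies below the lower line in all 3 panels.

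CDH1 encodes E-cadherin, the main adhesion receptor of the epithelial adherens junction. It read 2792 with LATS2, 3567 with LATS2N and 4421 in control cells. It was lowest with full-length LATS2 and intermediate with the fragment. In a bulk culture, fewer cells with a transcript and less of it per cell cannot be told apart. Against control the log2 ratio was -0.66 on LATS2, which is 1.58-fold lower and 5.71 times the spread between probe sets, and -0.31 on LATS2N, 1.24-fold lower and 3.46 times the spread. In LATS2 against LATS2N it was -0.35, 3.59 times the spread.

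Such a difference was uncommon among bright genes. Of 3225 genes with both signals at 2000 or more, a limit chosen after the values were seen, 0.558% were lower by at least 1.5-fold on LATS2 against control, and CDH1 is among these 18. On LATS2N against control 0.0933% were, and CDH1 was not among them. A dimmer CDH1 probe set read 14.9, 37.1 and 55.8 on LATS2, LATS2N and control, of which only the control signal exceeded the floor. The 18S ribosomal RNA probe sets ran in the same order of arrays as CDH1, with median log2 ratios to control of -1.31 on LATS2 and -0.70 on LATS2N, and their part in the CDH1 difference was not tested.

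**Figure D4:**
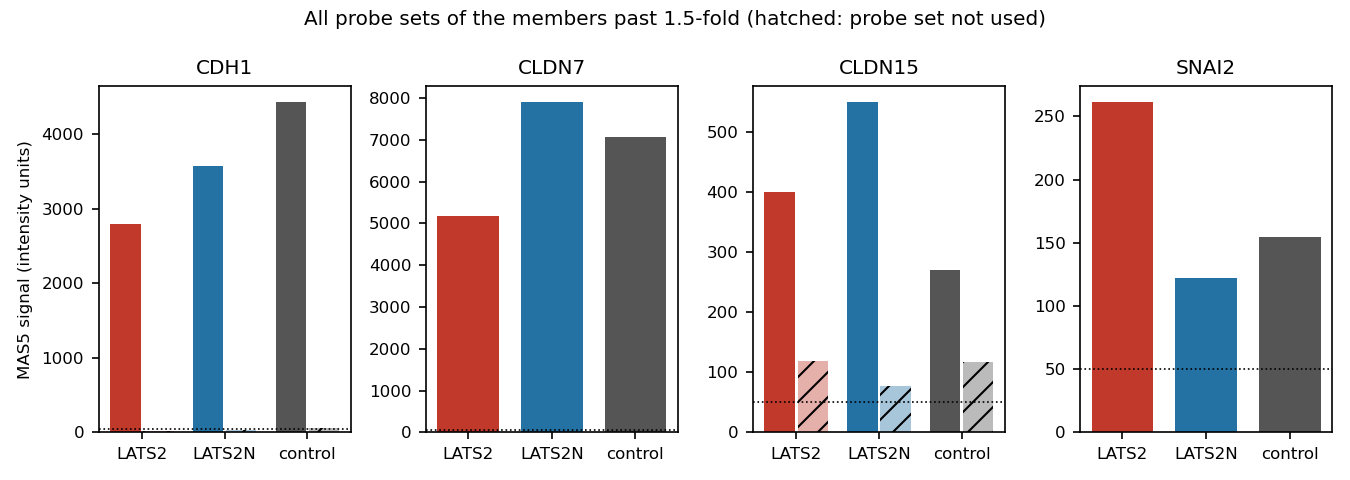
Signals (intensity units, bars from 0) of all probe sets of CDH1, CLDN7, CLDN15 and SNAI2 on the LATS2, LATS2N and control arrays. Solid bars are the brightest probe set, hatched bars the other one and the dotted line the floor, and the hatched CLDN15 bars do not follow the solid ones.

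The other adherens junction genes were close to control. CDH3, which encodes P-cadherin and lies next to CDH1 in the genome, read 839.9 on LATS2, 916.2 on LATS2N and 789.8 on control. Its log2 ratios to control, 0.09 on LATS2 and 0.21 on LATS2N, were 0.48 and 1.38 times the spread, so no direction is read from them. EPCAM, an epithelial adhesion molecule, read 18744 on LATS2, 18756 on LATS2N and 16608 on control, 1.13-fold higher on each construct array. CDH17, the liver-intestine cadherin, read 448.6, 393.1 and 438.3 on LATS2, LATS2N and control.

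CTNNA1, which encodes the alpha-catenin that links cadherins to actin, had log2 ratios to control of 0.11 on LATS2 and 0.08 on LATS2N. JUP, which encodes plakoglobin, a catenin shared with the desmosome, had -0.14 and -0.20. CDH2 read 27.7, 12.3 and 29.1 on LATS2, LATS2N and control, all below the floor, so no cadherin switch could be read from it. Over the 6 adherens junction genes above the floor, the median was 0.06 on LATS2 and -0.04 on LATS2N against control. The LATS2N median had no stable direction, being -0.16 with no floor and 0.21 over the 3 genes left without probe sets of possible shared targets.

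Among the claudins, the strand-forming proteins of tight junctions, CLDN7 and CLDN15 stood apart. CLDN7, a claudin of many epithelia that can also bind EPCAM, read 5171 on LATS2, 7896 on LATS2N and 7079 on control. The LATS2 array was the low one, and the fragment was slightly above control. The log2 ratio of LATS2 to LATS2N was -0.61, 1.53-fold lower and 6.2 times the spread. With both signals at 2000 or more, 0.592% of 3207 genes were lower by at least 1.5-fold. Among the members at that limit it was 1 of 12, CLDN7 itself. The limit of 2000 was chosen after the values were seen. Against control the log2 ratio of CLDN7 was -0.45 on LATS2, 3.9 times the spread, and 0.16 on LATS2N.

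CLDN15, a claudin that forms cation pores in the intestine, read 400.4 on LATS2, 549.2 on LATS2N and 270.4 on control with its brighter probe set. Both construct arrays were above control by this probe set, by 1.48-fold on LATS2 and 2.03-fold on LATS2N. Its second probe set read 118.8, 77.0 and 116.8 on LATS2, LATS2N and control, so that LATS2N was lowest. The probe sets thus disagreed on LATS2N, with log2 ratios of 1.02 and -0.60, and the call rests on the brighter one alone.

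The remaining claudins showed smaller ratios. CLDN1, a barrier-forming claudin, read 3407 on LATS2, 3249 on LATS2N and 3366 on control. CLDN3 and CLDN4, neighbouring genes for barrier claudins, had log2 ratios to control of 0.31 and -0.08 on LATS2 and of 0.23 and 0.07 on LATS2N. The second CLDN3 probe set, which may read shared targets, read 244.9, 237.1 and 127.9 on LATS2, LATS2N and control, so its ratios to control were larger, at 0.94 and 0.89. CLDN12 had ratios of -0.01 and 0.32.

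By their brightest probe sets, occludin and the scaffolds of the tight junction varied little. OCLN, which encodes the transmembrane protein occludin, read 1331 on LATS2, 1424 on LATS2N and 1705 on control. Its log2 ratio was -0.36 on LATS2 and -0.26 on LATS2N, each under 2 times the spread, and its 4 probe sets did not all go the same way. TJP1, which encodes the scaffold ZO-1, read 4572, 4521 and 4579 on LATS2, LATS2N and control, and so was nearly level. MARVELD2, which encodes tricellulin of three-cell contacts and neighbours OCLN in the genome, was level too, at 1343, 1373 and 1355.

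CGN, which encodes the cytoplasmic protein cingulin, had log2 ratios to control of 0.01 on LATS2 and -0.35 on LATS2N. Its second probe set went otherwise, with -0.73 and 0.10, at 94.8 on LATS2, 168.4 on LATS2N and 156.9 on control. MARVELD3, a relative of occludin, had -0.18 and -0.30, and TJP3, which encodes the scaffold ZO-3, had -0.49 and 0.00 at dim signals from 58.6 to 82.2.

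The polarity genes place the apical domain and the junction belt. PARD6B, an adaptor of the PAR complex, read 506.5 on LATS2, 500.5 on LATS2N and 349.5 on control. It was higher on both construct arrays, by 1.45-fold and 1.43-fold, or 2.0 and 2.17 times the spread. PARD3, its scaffold partner, had log2 ratios of -0.23 and 0.07, CRB3, an apical determinant of the Crumbs complex, -0.03 and 0.08, and LLGL2, a basolateral determinant, 0.24 and 0.14. The second LLGL2 probe set, nearly as bright, gave -0.12 on LATS2 and 0.08 on LATS2N. Over the 16 tight junction and polarity genes above the floor, the median was -0.01 on LATS2 and 0.07 on LATS2N against control.

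No desmosome gene passed 1.5-fold in any comparison by its brightest probe set. DSP, which encodes desmoplakin, the plakin that anchors keratin filaments, read 11247 on LATS2, 10064 on LATS2N and 11653 on control. The desmosomal cadherin genes DSG2 and DSC2 had log2 ratios of 0.19 and 0.19 on LATS2 and of 0.19 and 0.14 on LATS2N, and in each gene at least 1 other probe set was below control. The plakophilin genes PKP2, PKP3 and PKP4, whose proteins link the cadherins to desmoplakin or reinforce other contacts, had 0.11, -0.25 and -0.04 on LATS2 and 0.01, -0.26 and -0.05 on LATS2N. Some dimmer probe sets gave larger ratios. On LATS2 against control these were -0.57 for the second PKP3 probe set and -0.78 for the lowest of 5 for PKP4. Of the 5 PKP4 probe sets, 4 were below control on LATS2 and 1 above.

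By the fold between arrays of their brightest probe sets, PPL and EVPL varied most in this group. PPL, which encodes periplakin, read 1507 on LATS2, 1099 on LATS2N and 1211 on control. LATS2 was the high array, by 1.37-fold over LATS2N, or 2.83 times the spread. EVPL, which encodes envoplakin, a partner of periplakin, read 105.8, 129.3 and 148.3 on LATS2, LATS2N and control. Here LATS2 was the low array, at dimmer signals, and the EVPL ratio to control of -0.49 was only 1.38 times the spread. In multiples of the spread, DSP (2.37) and DSG2 (2.14) on LATS2N against control lay further out than EVPL. LATS2N was below control for both PPL and EVPL. The group's median was 0.03 on LATS2 and -0.10 on LATS2N against control. On LATS2 it turned to -0.27 with the median over probe sets and was 0.11 over the 7 genes with the brighter array at 200 or more.

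Among the EMT regulators, SNAI2, which encodes the repressor Slug, read 260.9 on LATS2, 121.9 on LATS2N and 154.5 on control, from its 1 probe set. LATS2 was the high array. The log2 ratio was 0.76 on LATS2 against control, 1.69-fold higher but only 2.14 times the spread at these dim signals, and 1.10 in LATS2 against LATS2N, 2.14-fold higher and 3.04 times the spread. On LATS2N against control it was -0.34, under 1 spread.

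ZEB1, which encodes a zinc finger repressor of epithelial genes, read 819.6 on LATS2, 700.7 on LATS2N and 671.5 on control. On LATS2 all 3 of its usable probe sets were above control, with ratios from 0.04 to 0.63. ESRP1, an RNA-binding protein that keeps epithelial splice forms, read 4091, 3600 and 3286 on LATS2, LATS2N and control, and so was also highest on LATS2. Its ratio to control there was 0.32, 2.72 times the spread, and both of its probe sets were higher.

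VIM, which encodes the mesenchymal intermediate filament protein vimentin, read 11030 on LATS2, 12206 on LATS2N and 10812 on control. The LATS2N array was the high one, by less than 1.5-fold. TWIST1 read 2.2, 14.2 and 14.8, all below the floor. The 4 EMT and splicing genes above the floor had ratios above 0 on LATS2 against control, with a median log2 ratio of 0.30, beside 54.8% of all genes with a ratio above 0. VIM was above 0 by only 0.03, or 0.25 of the spread, and its ratio turned to -0.0045 when ratios were centred on the median of all genes. They include regulators of opposite sense, since ESRP1 marks the epithelial state and ZEB1 and SNAI2 oppose it. On LATS2N against control 3 of 4 were above 0 and the median was 0.10, which turned to -0.07 with the median over probe sets.

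Where a gene had several usable probe sets, these often disagreed in direction. On LATS2 against control, 18 genes had at least 2 probe sets reaching the floor, and in 7 of them all went the same way. This held for 10 of 20 genes on LATS2N against control and for 6 of 18 in LATS2 against LATS2N. Ratios of this size therefore depended on the probe set for many of these genes. The same count was not taken over all genes, so it shows nothing particular to these genes.

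The 250 bases before the annotated gene start were searched for the E-box letters CAGGTG, bound by SNAI and ZEB factors, and for the TEAD core letters GGAATG, each on both strands. Sequences are from RefSeq, build GRCh38.p14, and promoters of 22 of the 38 genes were searched. CDH1, CDH3, CDH17, EPCAM, CLDN23, MARVELD3, PARD3, PARD6B, LLGL2, PKP2, PKP3, PPL, EVPL, ESRP1, SNAI2 and TWIST1 were not among them. Shown are CLDN7 and CLDN15, which differed most among the claudins, and OCLN and CRB3, tight junction genes with E-boxes, each 5′ to 3′ with E-boxes on either strand in capitals.
CLDN7 (chr17:7263214-7263463, minus strand): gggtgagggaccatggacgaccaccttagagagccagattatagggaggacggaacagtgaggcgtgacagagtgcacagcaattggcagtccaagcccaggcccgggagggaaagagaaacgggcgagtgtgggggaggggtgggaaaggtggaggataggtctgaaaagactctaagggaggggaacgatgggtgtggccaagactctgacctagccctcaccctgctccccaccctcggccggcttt
CLDN15 (chr7:101237803-101238052, minus strand): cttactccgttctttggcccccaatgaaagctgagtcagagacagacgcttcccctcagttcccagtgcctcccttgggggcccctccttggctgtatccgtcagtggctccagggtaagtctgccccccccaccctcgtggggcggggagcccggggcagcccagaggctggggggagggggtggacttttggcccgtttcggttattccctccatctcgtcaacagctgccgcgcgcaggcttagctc
OCLN (chr5:69492297-69492546, plus strand): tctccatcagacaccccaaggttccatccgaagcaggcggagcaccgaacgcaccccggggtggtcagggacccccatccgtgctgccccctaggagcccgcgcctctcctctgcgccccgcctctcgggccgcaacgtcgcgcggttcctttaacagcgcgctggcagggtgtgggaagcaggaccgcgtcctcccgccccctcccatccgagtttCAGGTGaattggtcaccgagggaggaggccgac
CRB3 (chr19:6464021-6464270, plus strand): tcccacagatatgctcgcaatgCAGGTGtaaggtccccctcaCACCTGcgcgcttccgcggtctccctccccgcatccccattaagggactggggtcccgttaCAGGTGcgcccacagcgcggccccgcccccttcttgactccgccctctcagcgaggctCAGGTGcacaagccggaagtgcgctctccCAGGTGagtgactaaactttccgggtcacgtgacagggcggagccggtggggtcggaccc

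CLDN7 and CLDN15 held no E-box in this window, OCLN held 1 and CRB3 held 5. In all, 7 of the 22 genes held an E-box, or 31.8%, against 17.5% of 27305 promoters, and none held the TEAD letters, against 11.9%. The genes with an E-box, out of those searched, were CRB3, DSC2, DSG2, DSP, OCLN, TJP1 and ZEB1. On the LATS2 array against control, these 7 had a median log2 ratio of 0.00, from -0.36 for OCLN to 0.29 for ZEB1. The 13 genes above the floor without the motif had -0.01, from -0.49 to 0.57. In LATS2 against LATS2N the medians were 0.02 and -0.03. A match of letters is a description of the sequence and not a binding site. Any link of the motif or of SNAI2 and ZEB1 to these ratios was not tested.

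Wider lists of the same biology were described in the same way, beside the 1.8%, 1.51% and 1.59% of all genes called at 2-fold on LATS2 against control, on LATS2N against control and in LATS2 against LATS2N. Of 40 measured other junction genes, 31 reached the floor on LATS2 against control, with a median log2 ratio of -0.04, and 1 was called higher, NECTIN3, which encodes a nectin of the adherens junction (116.0 on LATS2, 69.2 on LATS2N and 57.4 on control, 2.02-fold against control). Against control on LATS2N, 32 reached the floor with a median of 0.00, and CLDN16 was called, at least 2.06-fold higher since control was below the floor. In LATS2 against LATS2N, 30 reached it with a median of -0.02 and CLDN16 was called lower, the LATS2 signal being below the floor. At 1.5-fold, 1 was higher and 2 were lower on LATS2 against control, beside 10.3% of all genes. On LATS2N against control 1 was higher and none was lower, beside 8.13%. In LATS2 against LATS2N 1 was higher and 3 were lower, beside 9.34%.

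Of 26 measured other epithelial genes, such as keratins and epithelial transcription factors, 22 reached the floor and none was called in any comparison. That count is near those background shares. Medians were -0.05 on LATS2 and 0.05 on LATS2N against control and -0.09 in LATS2 against LATS2N. At 1.5-fold none of the 22 passed on LATS2 against control, beside 10.3% of all genes. On LATS2N against control none was higher and 2 were lower, beside 8.13%. In LATS2 against LATS2N 1 was higher and 1 was lower, beside 9.34%. Of 35 measured other mesenchymal genes, 23 reached the floor on LATS2 against control, with a median of 0.13, 1 called higher and 1 lower. ACTA2, a smooth muscle actin gene, was at least 2.04-fold higher there, and TAGLN, which encodes an actin-binding protein, was 3.35-fold lower (75.8 on LATS2, 217.1 on LATS2N and 253.9 on control). On LATS2N against control 24 reached the floor with a median of 0.04, and LOXL2, which encodes a collagen-crosslinking oxidase, was called higher by 2.58-fold (178.5 on LATS2N and 69.2 on control). At 1.5-fold 6 of these 24 were higher on LATS2N and none was lower, beside 644 higher and 433 lower of 13245 genes. The 6 were LOXL2, SPARC, TGFBI, COL1A1, ACTA2 and TPM2, named after their values were seen. Control was below the floor for SPARC and ACTA2, so their ratios are lower limits. On LATS2 against control 3 of the 23 were higher at 1.5-fold and 2 lower, beside 772 and 582 of 13186 genes. In LATS2 against LATS2N 26 reached the floor with a median of -0.08, and TAGLN was called lower by 2.86-fold. At 1.5-fold none of the 26 was higher and 4 were lower, beside 563 and 668 of 13175 genes.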

How the data were processed

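Total RNA from 3 virus-infected cultures was labelled with biotin and hybridised to Affymetrix arrays, per the labels' protocols. The submitters' processing notes name MAS5 as the source of the deposited intensities, with no version or settings given in the sources used here. They are on a linear scale, and the values show a mean of 500.1 on all 3 arrays once 2% is trimmed from each end.

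Each array held 54675 probe sets, 62 of them manufacturer's controls. Of the others, 41091 had 1 gene symbol in the platform annotation and 1801 had several. Symbols were updated through gene identifiers to RefSeq GRCh38.p14, which matched 41037. The brightest probe set by mean log2 signal stood for a gene, leaving 19775 genes, of which 9252 had a single probe set. Signals below the median of all signals (50.5) were set to it before log2 ratios were taken. No test is possible with 1 array per group. The spread between probe sets was the median absolute deviation, scaled to an SD, of the difference in log2 ratio between pairs of probe sets of a gene, divided by the square root of 2. The size call was tested on simulated data with equal noise at every signal, whereas the spread on these arrays was wider at dim signals. That simulation therefore does not cover calls at dim signals, such as that of SNAI2. Python 3.11.15, numpy 2.4.6 and pandas 2.3.3 were used.

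The members, lists and alternatives were chosen with earlier results of these data known. Full signals are given for members past 1.5-fold in any comparison and for core junction and EMT genes. Genes of the wider lists are named where called with both signals above the floor, and CLDN16, ACTA2, SPARC, TGFBI, TPM2, the collagen, connexin, integrin and keratin genes and PLEC, and the members CLDN1, CLDN3, MARVELD2, PARD6B, CDH17, DSP, PPL and EVPL among those with full signals, were chosen after their values were seen. The alternatives were other floors, the median over probe sets, probe sets without possible shared targets, median centring, quantile normalization, symbols as annotated, a limit on dim genes and a 1.5-fold call.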

Additional observations from a re-analysis of the deposited data

How the results depend on the processing

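The counts of called genes were small and moved with the settings, as did the share of all genes called. On LATS2 against control the count was 0. It was 1 with no floor (TWIST1, beside 18.8% of all genes). With the median over probe sets it was 1 (CDH1 at a log2 ratio of -1.29, beside 2.39%). At 1.5-fold it was 2 (SNAI2 and CDH1, beside 10.3%), and past 3 times the spread it was 2 (beside 4.11%). It was 1 at 1.5-fold with both signals at 2000 or more (beside 0.992% of such genes). On LATS2N against control the count was 1, beside 1.51% of all genes. It was 3 with the 25th percentile as floor or without any floor (CLDN15, CLDN23 and CDH2 in both, beside 9.31% and 17.7%). Past 3 times the spread it was 2 (beside 3.95%). It was 0 with a floor at the 75th percentile (0.0123%), with the median over probe sets (1.94%) and with centred ratios (1.48%). At 1.5-fold with both signals at 2000 or more it was also 0 (0.249% of such genes). In LATS2 against LATS2N the count was 1. It was 3 with no floor (CDH2, SNAI2 and TWIST1, beside 18.5%) and 3 past 3 times the spread (beside 4.9%). At 1.5-fold it was 2 (beside 9.34%), and with a floor at the 75th percentile it was 0 (0.243%). The genes added with a lower floor or none read below the median signal on every array. The CDH1 call with the median over probe sets takes in a probe set whose LATS2 and LATS2N signals were below the floor of 50.5, so neither that fold nor the call is a measured one. The median of the junction and EMT genes came to -0.0202 on LATS2 against control with centred ratios, and, with the median over probe sets, to -0.0525 on LATS2N against control and -0.0417 in LATS2 against LATS2N (33 genes). Centring subtracts the median over all genes, 0.033 on LATS2 against control, from each ratio. The cause of the changes with the median over probe sets was not tested. Under the alternatives that gave a value, the log2 ratio of CDH1 on LATS2 against control lay between -1.29 and -0.66. The -1.29 is the value with the median over probe sets, which is not a measured fold. The CDH1 ratio was -0.70 with centred ratios and -0.66 with quantile normalization. The ratio of CLDN7 on LATS2 against control stayed between -0.49 and -0.45. That of SNAI2 in LATS2 against LATS2N stayed between 1.08 and 1.10, and that of CLDN15 on LATS2N against control ran from 0.21 to 1.03. CDH1 has no value without probe sets of possible shared targets. No paired analysis was possible because each group has 1 array. With 1 array per group, differences between cultures cannot be told apart from effects of the constructs.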

Other observations

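Other cell contacts gave a few further values, for genes picked with their values known. Among the connexin genes, whose proteins form gap junctions, GJB2 read 1416 on LATS2, 2324 on LATS2N and 2298 on control, 1.62-fold lower on LATS2 than on control and level with control on LATS2N. The connexin genes GJA1 and GJB1 had log2 ratios of -0.12 and -0.21 on LATS2 against control. Of 12 genes of the hemidesmosome and of adhesion to the basement membrane, 9 were measured and reached the floor. None was called in any comparison, beside 1.8%, 1.51% and 1.59% of all genes, so the count is near the background. At 1.5-fold 1 was higher and 1 was lower on LATS2 against control, beside 10.3% of all genes. On LATS2N against control none passed, beside 8.13%. In LATS2 against LATS2N 1 was higher and none was lower, beside 9.34%. Medians over the 9 genes were 0.11 on LATS2 against control, 0.03 on LATS2N against control and 0.07 in LATS2 against LATS2N. The highest ratio among them on LATS2 against control was that of PLEC, which encodes plectin, a linker of keratin filaments to integrins, at 1335 on LATS2, 821 on LATS2N and 709 on control, 1.88-fold higher on LATS2 than on control. On LATS2N against control its log2 ratio was 0.21, below those of ITGB4 (0.28) and ITGB1 (0.25).

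COL1A1, which encodes a chain of type I collagen, was 1.83-fold higher on LATS2 and 1.87-fold higher on LATS2N than on control, at 596.5, 606.8 and 325.3 on LATS2, LATS2N and control. COL1A2 and COL3A1 were below the floor on every array.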
